A study of Mus musculus with 40 samples.

Results

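Integrins are cell-surface receptors made of an alpha and a beta chain, and laminins are basement membrane proteins made of an alpha, a beta and a gamma chain. The genes described here are those that encode these chains, taken by the start of the gene symbol (*Itga*, *Itgb*, *Lama*, *Lamb* and *Lamc*) without *Itgb1bp1*, *Itgb1bp2*, *Itgb3bp* and *Itgbl1*, which encode no chain of an integrin receptor. Of the 17831 genes listed in the male or the female table, 36 met this rule, and all 36 were listed in both. They comprise 26 integrin genes (18 alpha and 8 beta) and 10 laminin genes (4 alpha, 3 beta and 3 gamma). Within the integrins, *Itgam*, *Itgax*, *Itgal* and *Itgb2*, the chains of leukocyte receptors, were kept apart from the other 22. *Itgad*, a leukocyte chain that lies beside *Itgax*, did not reach the minimum level for testing in either sex, with at most 17 reads in any library, so 35 genes were tested. *Lama1* and *Itgb2l* were not listed in either table.

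PolyA RNA was sequenced from hearts of male and female mice, 1 library per mouse (the labels give heart and the study's text ventricular tissue). CM-Il11-Tg mice carry an *Il11* transgene that is switched on in cardiomyocytes by a tamoxifen-activated Cre under the cardiomyocyte promoter of α-MHC, and were taken 1, 3 and 6 weeks after tamoxifen, which was given from 8 weeks of age. Controls were littermates with the same Cre, without the *Il11* transgene, and also received tamoxifen, and uninduced mice were CM-Il11-Tg mice without it. Both are labelled as baseline with no week, so 1 control set serves all weeks, and induction cannot be told apart from age or time since tamoxifen. Each group had 4 libraries, except that male controls and male hearts at 6 weeks had 3 each, since 2 male libraries with conflicting labels were left out. *Il11* itself ran from 0 to 0.147 CPM (read counts made comparable between libraries by the authors' scaling) in male controls, 16.5 to 23.3 CPM in uninduced males and 336 to 819 CPM in induced males. The female ranges were 0 to 0.166, 15.5 to 49.1 and 328 to 614 CPM, so the uninduced hearts already held transcript of the transgene. Cardiomyocyte markers such as *Myh6* and *Tnnt2* were abundant: the 10 on the list summed to between 42100 and 77470 CPM in controls, uninduced hearts and hearts at 6 weeks. The reads on listed genes numbered 16663513 to 65333832 per male library and 19147947 to 30929192 per female library.

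Each integrin heterodimer recognises a class of ligand. The beta1 chain pairs with many alpha chains to bind collagens, fibronectin or laminins. Chains that recognise the RGD motif bind fibronectin, vitronectin or the latent form of TGF-beta. The beta2 integrins serve leukocyte adhesion and phagocytosis. In cardiomyocytes, alpha7 beta1 anchors the cell to the laminin of its basement membrane, of which laminin alpha2 is the main alpha chain in striated muscle, while alpha4 and alpha5 are the laminin alpha chains of vessel walls.

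In control hearts the levels of the 36 genes, per kilobase of annotated exon, spanned more than 3 orders of magnitude. *Lamb2* and *Itgb1* were highest: *Lamb2* stood at 65.5 ± 6.62 CPM per kilobase in males (mean ± SD, n = 3) and 50.6 ± 3.497 in females (n = 4), and *Itgb1* at 62.6 ± 5.91 and 54.3 ± 3.42. These 2 genes did not differ beyond their spread in either sex. *Lamc1* (21.4 ± 5.31 in males), *Itga7* (21.2 ± 1.31) and *Lama5* (15.6 ± 3.55) followed. The spread of *Lamc1* overlapped those of both others, and *Lama5* lay below *Itga7*. The leukocyte alpha chains lay far below, with *Itgax* at 0.128 ± 0.0831 CPM per kilobase in males and 0.129 ± 0.0207 in females. The lowest was *Itgae* in males (0.0385 ± 0.0302) and *Lamc3* in females (0.0445 ± 0.0333), and *Itgb8*, described below, was also near the bottom at 0.05797 ± 0.00801 and 0.0754 ± 0.0115.

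**Figure D1:**
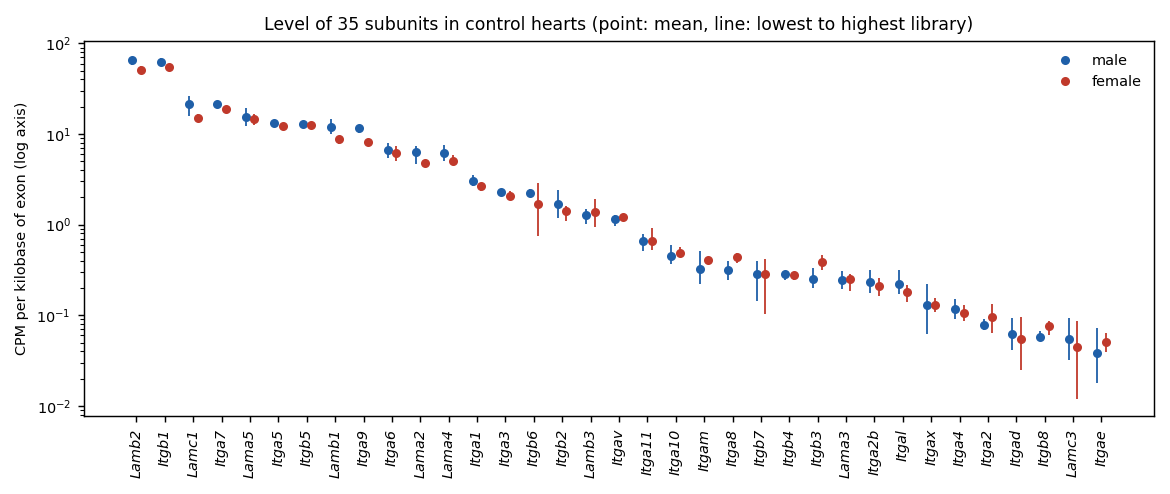
Level of 35 of the 36 integrin and laminin genes in control hearts, in CPM per kilobase of annotated exon on a log axis, ordered by the male mean. Points are means of 3 male (blue) or 4 female (red) libraries and lines run from the lowest to the highest library. *Lamb2* and *Itgb1* lie above 50 CPM per kilobase in both sexes.

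After induction of *Il11* integrin genes passed in both directions, most of them as higher. Against control, 20 of the 35 tested genes passed in males at 1 week (13 higher and 7 lower; limma on log2(CPM + 0.5), adjusted p under 0.05), where 33.5% of all genes passed (18.9% higher and 14.6% lower). At 3 weeks 19 passed (13 higher and 6 lower), against 21.3% of all genes (13.2% and 8.10%). At 6 weeks 17 passed (11 higher and 6 lower), against 27.1% (16.2% and 10.9%). In females 16 passed at 1 week (15 higher and 1 lower), against 28.4% of all genes (15.3% higher and 13.1% lower). The female counts were 18 at 3 weeks (13 higher and 5 lower), against 31.3% (16.8% and 14.5%), and 21 at 6 weeks (16 higher and 5 lower), against 42.7% (21.7% and 21.0%). With a change of at least 2-fold also required, 6, 7 and 9 passed in males, against 8.07%, 6.75% and 8.50% of all genes, and 5, 7 and 8 in females, against 7.35%, 8.04% and 11.7%. The shares of the 35 genes ran from 45.7% to 60.0%, above the share of all genes at every week. The lower calls made up 17.1% to 20.0% of the 35 genes in males, above the share of all genes, and 2.86% to 14.3% in females, below it at each week. Leaving out replicate 3 of every group lowered the male counts to 12 at 1 week and 7 at 3 weeks. It took away 1 of the 3 male controls and kept the high male control described below. The share of all genes under that setting is not given here. The weeks share their controls, so they are not independent of one another. Median log2 fold changes of the 35 genes at 6 weeks were 0.28 in males and 0.27 in females, beside -0.01 and -0.02 over all genes tested.

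The falls rest on how libraries are scaled. Scaling to the total of listed reads in place of the deposited factors raised the median log2 fold change of all genes to between 0.16 and 0.34, and the splits against control then became 17 higher and 0 lower, 17 and 0, and 13 and 3 in males at 1, 3 and 6 weeks, and 22 and 0, 19 and 2, and 21 and 1 in females. All 81 higher calls still passed under that scaling, but only 6 of the 30 lower calls did. Relative to the raised median all 30 stayed below it. Each fall given below is therefore a fall relative to the bulk of genes. The shares of all genes that passed under scaling to total reads are not given here.

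Counting genes that passed in both sexes, 10, 12 and 11 were higher at 1, 3 and 6 weeks, and 1, 5 and 3 were lower. None passed in opposite directions at any week. The share of all genes that passed in both sexes was not counted, so these counts have no background beside them. *Itga2*, *Itga2b*, *Itgam*, *Itgax*, *Itgb2*, *Itgb4*, *Itgb5*, *Itgb7* and *Itgb8* passed as higher at all 3 weeks in both sexes, and *Itga6* as lower. *Itga10*, *Itga5*, *Lama3*, *Lama4*, *Lamb3* and *Lamc3* passed at no week in either sex.

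**Figure D2:**
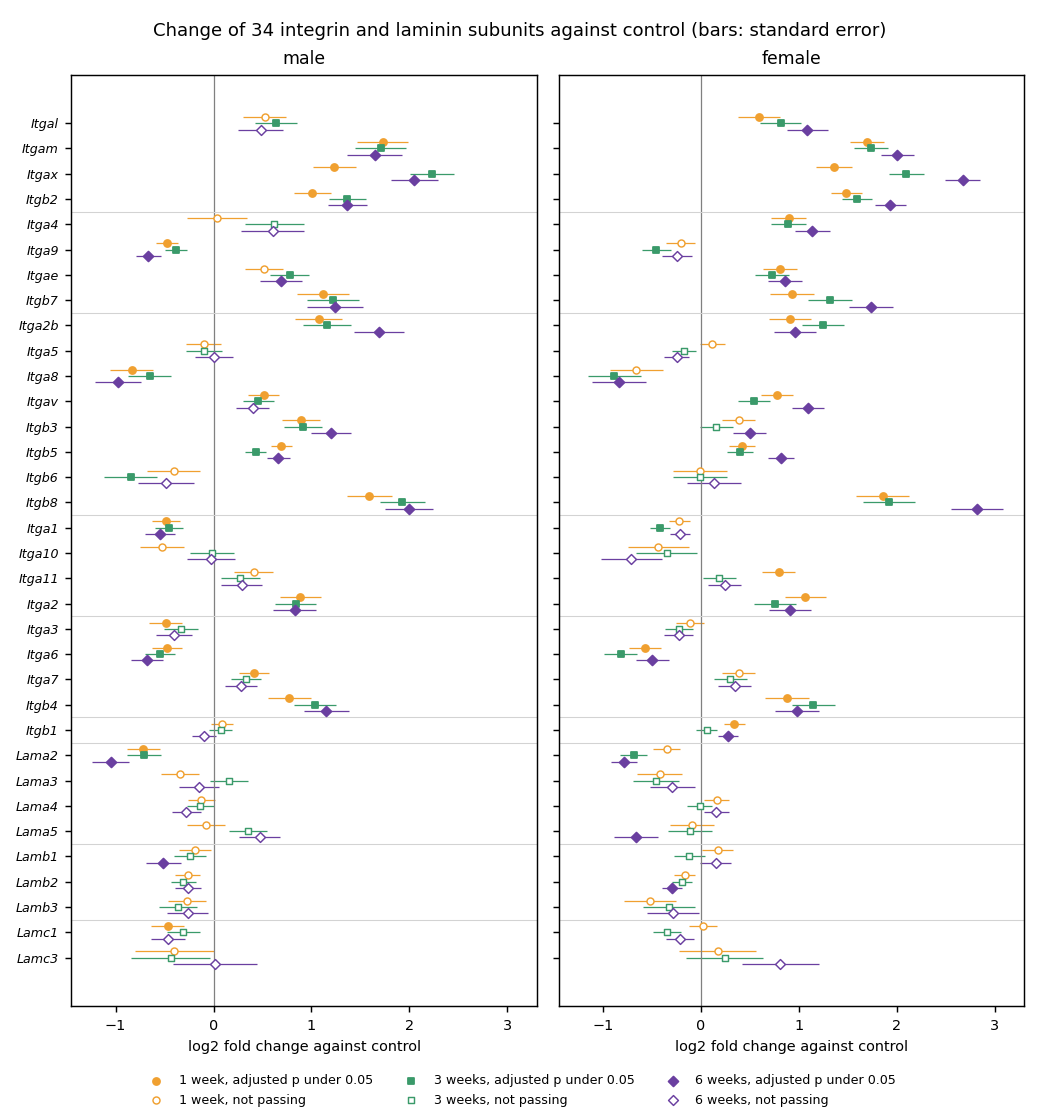
Log2 fold change against control of 34 of the 35 tested genes in males (left) and females (right) at 1 week (orange circles), 3 weeks (green squares) and 6 weeks (purple diamonds), on one common axis. Bars are standard errors, filled symbols have an adjusted p under 0.05, and grey lines separate the groups by ligand or chain. *Itgb8*, *Itgax* and *Itgam* lie farthest to the right, and *Lama2* is the laminin gene farthest to the left at 6 weeks.

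Among leukocyte integrins, *Itgam* (CD11b, which pairs with beta2 to form the complement receptor of myeloid cells), *Itgax* (CD11c, found on dendritic cells and many macrophages) and *Itgb2* (CD18, their shared beta chain) rose at every week in both sexes. In males *Itgam* was at 1.12, 1.17 and 2.62 CPM in controls, 2.25, 2.05, 3.56 and 2.204 in uninduced hearts, and 7.53, 5.81, 6.25 and 5.62, then 5.86, 7.06, 5.36 and 6.48, then 5.803, 9.67 and 3.57 at 1, 3 and 6 weeks. In females *Itgam* was at 2.07, 2.13, 2.201 and 1.995 CPM in controls, 2.76, 2.85, 4.41 and 2.43 in uninduced hearts, and 7.97, 10.3, 7.82 and 6.07, then 8.89, 7.26, 8.58 and 7.96, then 9.197, 11.4, 12.6 and 7.31 at 1, 3 and 6 weeks. Every induced library lay above every control library of its sex, the closest pair being 3.57 CPM at 6 weeks and 2.62 CPM in control, both male. The log2 fold changes were 1.73 (SE 0.26), 1.71 (SE 0.26) and 1.65 (SE 0.28) in males at 1, 3 and 6 weeks and 1.69 (SE 0.17), 1.74 (SE 0.17) and 2.005 (SE 0.17) in females, with adjusted p at 6 weeks of 0.000194 and 1.14e-08 (limma).

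*Itgax* was higher at 6 weeks than at 1 week in females. Its male libraries held 0.2998, 0.492 and 1.07 CPM in controls, 0.996, 1.33, 1.15 and 0.811 in uninduced hearts, and 1.94, 2.81, 1.76 and 1.76, then 5.86, 4.06, 4.47 and 4.05, then 4.42, 4.696 and 2.96 at 1, 3 and 6 weeks. Its female libraries held 0.5598, 0.532, 0.7505 and 0.665 CPM in controls, 1.24, 0.797, 0.926 and 1.29 in uninduced hearts, and 2.31, 3.46, 1.72 and 2.299, then 5.92, 3.19, 3.79 and 4.76, then 6.82, 7.17, 7.13 and 5.64 at 1, 3 and 6 weeks. No library at any week overlapped the controls, and in females the 6-week libraries all lay above the 1-week libraries. The log2 fold changes were 1.24 (SE 0.22), 2.23 (SE 0.22) and 2.05 (SE 0.24) in males and 1.36 (SE 0.18), 2.097 (SE 0.18) and 2.67 (SE 0.18) in females, with adjusted p at 6 weeks of 2.54e-06 and 3.02e-10 (limma). After adjustment *Itgax* was the 1 member that differed between 1 week and a later week, and 6 against 3 weeks was not tested. Its change from 1 to 6 weeks in females was 1.31 (SE 0.18, adjusted p 0.000378, limma), where 1.03% of all genes passed. In males the same step was 0.81 (SE 0.22, adjusted p 0.154) and did not pass.

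*Itgb2* had the highest level per kilobase of the 4. Male hearts held *Itgb2* at 3.82, 4.96 and 7.85 CPM in controls, 6.45, 5.46, 6.94 and 6.61 in uninduced hearts, and 11.6, 11.3, 11.3 and 10.6, then 17.3, 12.1, 12.5 and 17.04, then 11.8, 16.9 and 15.2 at 1, 3 and 6 weeks. Female hearts held *Itgb2* at 4.39, 3.53, 5.203 and 5.21 CPM in controls, 8.23, 6.15, 8.15 and 9.47 in uninduced hearts, and 13.6, 16.1, 13.2 and 11.8, then 14.4, 11.9, 17.4 and 15.7, then 17.3, 20.8, 22.6 and 15.1 at 1, 3 and 6 weeks. Induced hearts and controls did not overlap in either sex, with log2 fold changes of 1.01 (SE 0.19), 1.37 (SE 0.19) and 1.37 (SE 0.20) in males and 1.49 (SE 0.16), 1.59 (SE 0.16) and 1.93 (SE 0.16) in females. *Itgal* (CD11a, the alpha chain of LFA-1 on lymphocytes and other leukocytes) had the smallest changes. It passed in males at 3 weeks only, at 0.63 (SE 0.22, adjusted p 0.0412, limma), with overlapping libraries. In females *Itgal* passed at every week, reaching 1.09 (SE 0.21, adjusted p 0.000363, limma) at 6 weeks, and its libraries at 3 weeks overlapped the controls. Its control libraries ran from 1.12 to 2.07 CPM in males and 0.919 to 1.42 CPM in females, and its libraries at 6 weeks from 1.97 to 2.29 and 2.54 to 3.86 CPM.

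**Figure D3:**
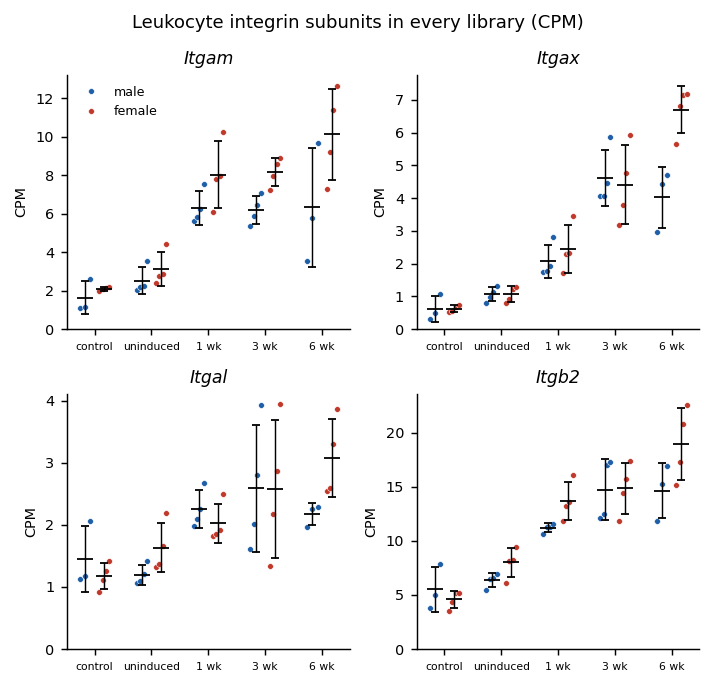
CPM of the 4 leukocyte integrin genes in every male (blue) and female (red) library, by group; horizontal lines are means and bars are SD (n = 3 or 4). For *Itgam*, *Itgax* and *Itgb2* all induced libraries lie above the controls of their sex. Those of *Itgal* overlap the controls in males and, at 3 weeks, in females.

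General leukocyte markers moved with these genes. In males 10 of the 12 tested leukocyte markers, *Ptprc* and *Cd68* among them, rose at 6 weeks, and in females 11 of 13. Of all genes 16.2% passed as higher in males and 21.7% in females. The summed level of the leukocyte list went from 185 to 299 CPM in male controls to 708 to 974 CPM at 6 weeks. In females it went from 157 to 220 CPM to 844 to 1010 CPM. The neutrophil genes *S100a8* and *S100a9* did not pass in either sex, *Ly6g* was in neither table and the T cell gene *Cd3e* was not in the male table. In RNA from hearts, fewer or more cells of a type and less or more RNA per cell cannot be told apart, and the part of leukocyte number in these changes was not tested. One male control library stood apart, with *Itgam* at 2.62 CPM against 1.12 and 1.17 CPM and a leukocyte sum of 299 CPM against 185 and 191 CPM. Without it the male counts became 13 higher and 3 lower at 1 week, 12 and 1 at 3 weeks and 12 and 4 at 6 weeks. The shares of all genes that passed without this library are not given here. The calls lost included those of *Lamc1*, *Itga6*, *Itga7*, *Itga3* and *Itga1* at 1 week, *Itga8*, *Itga6*, *Itgav*, *Itgb6*, *Itga9* and *Itga1* at 3 weeks, and *Itga1* and *Lamb1* at 6 weeks.

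*Itgam* (chr7:127661808-127717753, plus strand in GRCm39), *Itgax* (chr7:127728668-127749829, plus strand) and *Itgad* (chr7:127753548-127822988, plus strand) are neighbours on mouse chromosome 7. The promoters of the 2 that rose are shown because these adjacent genes moved together, with bases before the start site, exon bases left out. They come from the RefSeq promoter table (GRCm38.p6) and were found unchanged in GRCm39, chr7:127661562-127661807, plus strand, for *Itgam*, and chr7:127728472-127728667, plus strand, for *Itgax*. Capitals mark GAGGAA on either strand, the core of many sites for PU.1, the ETS factor of myeloid cells, and, for GATA factors, AGATAA.
Itgam: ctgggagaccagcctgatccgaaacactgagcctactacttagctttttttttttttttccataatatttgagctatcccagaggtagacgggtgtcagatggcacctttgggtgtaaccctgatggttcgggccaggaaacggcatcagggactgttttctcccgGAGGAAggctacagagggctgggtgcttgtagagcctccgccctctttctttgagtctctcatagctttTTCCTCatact
Itgax: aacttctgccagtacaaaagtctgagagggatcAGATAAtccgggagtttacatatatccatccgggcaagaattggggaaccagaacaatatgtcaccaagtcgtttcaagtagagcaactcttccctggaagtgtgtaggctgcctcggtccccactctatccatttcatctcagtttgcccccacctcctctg
The *Itgam* window held GAGGAA at 2 places, 1 on each strand, and the *Itgax* window held AGATAA once and no GAGGAA. Of the 36 genes, 23 had an entry in the table, with 26 promoters in all. Over the 250 bases before the start, GAGGAA was in 13 of the 26 and in 23.3% of all 32851 promoters, AGATAA in 1 (*Itgax*) and in 9.99%, and TTCNNNGAA, the core that STAT factors bind, in 2 (*Itga10* and *Lamb2*) and in 7.02%. None of the 3 motifs overlaps another in the windows printed.

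Of the other chains carried mainly by leukocytes, *Itgb7* (which pairs with alpha4 or alpha E to guide lymphocytes to mucosal tissue) rose in both sexes. In males *Itgb7* ran at 0.412, 0.909 and 1.16 CPM in controls, 1.07, 0.889, 0.402 and 0.659 in uninduced hearts, and 2.08, 2.35, 1.995 and 2.85, then 4.82, 1.64, 2.04 and 2.32, then 2.43, 2.54 and 2.63 at 1, 3 and 6 weeks. In females *Itgb7* ran at 1.21, 0.919, 0.3002 and 0.887 CPM in controls, 1.38, 1.82, 1.499 and 1.46 in uninduced hearts, and 2.099, 2.53, 1.296 and 1.995, then 2.83, 1.63, 4.03 and 2.704, then 3.69, 4.17, 4.29 and 3.02 at 1, 3 and 6 weeks. The induced groups did not overlap the controls, and the log2 fold changes were 1.12 (SE 0.27), 1.22 (SE 0.27) and 1.24 (SE 0.28) in males and 0.93 (SE 0.23), 1.31 (SE 0.23) and 1.73 (SE 0.23) in females. Its partner *Itgae* (CD103) rose at 3 and 6 weeks in males, by 0.78 (SE 0.20) and 0.69 (SE 0.21), and at every week in females, by 0.81 (SE 0.17), 0.72 (SE 0.17) and 0.86 (SE 0.17), from the low control level given above. *Itga4*, the alpha chain of the VCAM-1 receptor VLA-4, rose in females only by the test, at 0.89 (SE 0.18), 0.89 (SE 0.18) and 1.14 (SE 0.18), with male values of 0.04 (SE 0.30), 0.62 (SE 0.30) and 0.603 (SE 0.32). The difference between the sexes was -0.86 at 1 week (male minus female, SE 0.35) with an adjusted p of 0.195 (limma) and did not pass. *Itga9*, a receptor for tenascin C and osteopontin, was listed here as an alpha4/alpha9 chain and not as a chain carried mainly by leukocytes. It was highest per kilobase of this group and went the other way. Male *Itga9* libraries held 78.8, 90.1 and 98.2 CPM in controls, 82.1, 69.3, 74.7 and 85.3 in uninduced hearts, and 74.2, 53.4, 62.1 and 66.9, then 69.1, 64.5, 69.9 and 68.3, then 55.7, 61.01 and 50.95 at 1, 3 and 6 weeks. Female *Itga9* libraries held 61.01, 58.2, 68.6 and 62.2 CPM in controls, 58.9, 69.7, 49.4 and 81.98 in uninduced hearts, and 58.8, 58.96, 51.2 and 47.5, then 52.01, 43.9, 39.5 and 46.96, then 48.4, 49.1, 72.8 and 43.9 at 1, 3 and 6 weeks. Males did not overlap the controls and fell by 0.47 (SE 0.12), 0.38 (SE 0.12) and 0.67 (SE 0.12) on the log2 scale at 1, 3 and 6 weeks, while females passed at 3 weeks only, with a log2 fold change of -0.46 (SE 0.15, adjusted p 0.0246).

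Among the 8 chains of RGD-binding integrins, *Itgb8* changed most. Its product pairs with alpha v and binds latent TGF-beta, and it is known from fibroblasts, dendritic cells and neural cells. The male libraries stood at 0.5996, 0.757 and 0.602 CPM in controls, 0.922, 0.623, 0.287 and 0.38 in uninduced hearts, and 3.95, 3.37, 2.39 and 2.397, then 3.12, 5.39, 3.52 and 3.79, then 5.099, 4.55 and 2.94 at 1, 3 and 6 weeks. The female libraries stood at 0.689, 0.968, 0.8005 and 0.942 CPM in controls, 0.952, 1.02, 1.37 and 0.809 in uninduced hearts, and 3.84, 8.93, 4.31 and 2.34, then 5.58, 3.72, 5.398 and 3.91, then 6.26, 10.9, 12.7 and 7.46 at 1, 3 and 6 weeks. Uninduced hearts overlapped the controls, and every induced library lay above both groups. Mean levels went from 0.653 ± 0.0903 CPM in controls (SD, n = 3) to 4.197 ± 1.12 CPM at 6 weeks (n = 3) in males, 6.43 times as high, and from 0.8499 ± 0.1301 to 9.35 ± 3.0 CPM (n = 4 each) in females. The log2 fold changes, on the log2(CPM + 0.5) scale that understates the change of so low a gene, were 1.59 (SE 0.23), 1.93 (SE 0.23) and 1.999 (SE 0.25) in males and 1.85 (SE 0.27), 1.92 (SE 0.27) and 2.82 (SE 0.27) in females (adjusted p at 6 weeks 5.17e-06 and 4.43e-08, limma). In females *Itgb8* had the largest log2 fold change of the 35 genes at 1 and 6 weeks. At 6 weeks 8 of the 10 fibroblast markers rose in each sex and *Gsn* was lower. Of all genes 16.2% passed as higher in males and 21.7% in females. The fibroblast markers summed to 1585 to 2050 CPM in male controls and 5530 to 7423 CPM at 6 weeks, and to 2105 to 2484 and 7519 to 12770 CPM in females. Whether these cells carry the *Itgb8* transcript was not tested.

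*Itgb5* and *Itgav*, which together form the vitronectin receptor alpha v beta5, had smaller changes from higher levels per kilobase. *Itgb5* libraries held 89.04, 91.3 and 96.05 CPM in controls, 112, 95.96, 105 and 102 in uninduced hearts, and 140.5, 146, 133 and 179.9, then 142, 124, 116 and 116, then 155, 141 and 141 at 1, 3 and 6 weeks in males. In females *Itgb5* was at 87.1, 92.3, 82.2 and 93.7 CPM in controls, 78.1, 84.7, 122 and 128 in uninduced hearts, and 111, 138, 122 and 107, then 119, 114, 119 and 117, then 132, 172, 157 and 169 at 1, 3 and 6 weeks. Its induced libraries lay above the controls at every week, and uninduced ones overlapped them. Its log2 fold changes were 0.69 (SE 0.11), 0.43 (SE 0.11) and 0.66 (SE 0.12) in males and 0.42 (SE 0.13), 0.401 (SE 0.13) and 0.82 (SE 0.13) in females. *Itgav* rose in males at 1 and 3 weeks, by 0.51 (SE 0.16) and 0.46 (SE 0.16), and stood at 0.398 (SE 0.17, adjusted p 0.0943) at 6 weeks. In females it rose at every week, by 0.77 (SE 0.16), 0.54 (SE 0.16) and 1.09 (SE 0.16). Its male call at 3 weeks was lost in 9 of the 14 settings tried. *Itgb6*, the epithelial partner of alpha v that also binds latent TGF-beta, passed once, in males at 3 weeks, with a log2 fold change of -0.85 (SE 0.27, adjusted p 0.0284) and libraries that overlapped the controls. Its female controls were widely spread, from 5.42 to 21.3 CPM.

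*Itga2b* and *Itgb3* encode the platelet fibrinogen receptor, and beta3 also pairs with alpha v. Male *Itga2b* values were 2.59, 1.67 and 1.43 CPM in controls, 2.73, 2.13, 2.58 and 1.72 in uninduced hearts, and 3.58, 5.53, 5.79 and 3.33, then 5.13, 5.53, 5.68 and 3.09, then 5.22, 7.42 and 9.07 at 1, 3 and 6 weeks. Female *Itga2b* values were 2.11, 1.65, 1.35 and 1.77 CPM in controls, 1.38, 2.05, 4.14 and 1.54 in uninduced hearts, and 3.49, 3.57, 3.81 and 3.69, then 4.17, 3.76, 5.44 and 5.73, then 4.92, 3.44, 3.27 and 3.699 at 1, 3 and 6 weeks. All induced libraries lay above the controls in both sexes, with log2 fold changes of 1.07 (SE 0.24), 1.16 (SE 0.24) and 1.69 (SE 0.26) in males and 0.91 (SE 0.21), 1.24 (SE 0.21) and 0.96 (SE 0.21) in females. *Itgb3* rose at every week in males, by 0.89 (SE 0.19), 0.91 (SE 0.19) and 1.202 (SE 0.21), and at 6 weeks in females (0.496, SE 0.17, adjusted p 0.0244), where its libraries overlapped. The difference between the sexes in *Itgb3* had an adjusted p of 0.777 at 3 weeks and 0.181 at 6 weeks (limma) and did not pass. Of 4 tested platelet and megakaryocyte markers, 3 rose and *Gp1ba* was lower in males at 6 weeks, and 2 rose in females. Of all genes 16.2% passed as higher in males and 21.7% in females. The platelet markers summed to 7.54 to 10.8 CPM in male controls and 20.1 to 39.3 CPM at 6 weeks. In females the sums were 7.19 to 12.6 and 18.2 to 27.3 CPM, and *Gp9*, *Gp1bb* and *Gp6* were in neither table.

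The fibronectin receptor chain *Itga5*, with *Itgb5* the highest of this group per kilobase in controls, held 71.9, 67.8 and 71.2 CPM in controls, 64.5, 58.7, 67.9 and 77.03 in uninduced hearts, and 88.5, 59.3, 61.5 and 56.7, then 65.95, 58.97, 87.8 and 54.6, then 67.5, 55.04 and 94.3 at 1, 3 and 6 weeks in males. In females *Itga5* was at 66.9, 59.2, 67.7 and 69.01 CPM in controls, 61.7, 65.8, 100.1 and 67.1 in uninduced hearts, and 68.7, 69.3, 73.01 and 73.5, then 59.04, 48.2, 59.2 and 67.8, then 56.1, 58.7, 57.2 and 48.8 at 1, 3 and 6 weeks. It passed against control at no week. *Itga8*, which binds nephronectin and is found on smooth muscle and fibroblast-like cells, went down. It fell in males by 0.84 (SE 0.22), 0.65 (SE 0.22) and 0.97 (SE 0.23) on the log2 scale, and in females by 0.89 (SE 0.27) at 3 weeks and 0.84 (SE 0.27) at 6 weeks, after a value of -0.66 (SE 0.27, adjusted p 0.07495) at 1 week. Male control libraries ran from 2.62 to 4.298 CPM and those at 6 weeks from 1.26 to 1.63 CPM, and female ones from 4.11 to 5.25 and 1.07 to 3.86 CPM. Pericyte and smooth muscle markers summed to 1207 to 1516 CPM in male controls and 785 to 944 CPM at 6 weeks. In females the sums were 1155 to 1368 and 812 to 1142 CPM. At 6 weeks 2 of 10 passed as lower in each sex, beside 10.9% of all genes in males and 21.0% in females. The part of these cells in the fall of *Itga8* was not tested.

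**Figure D4:**
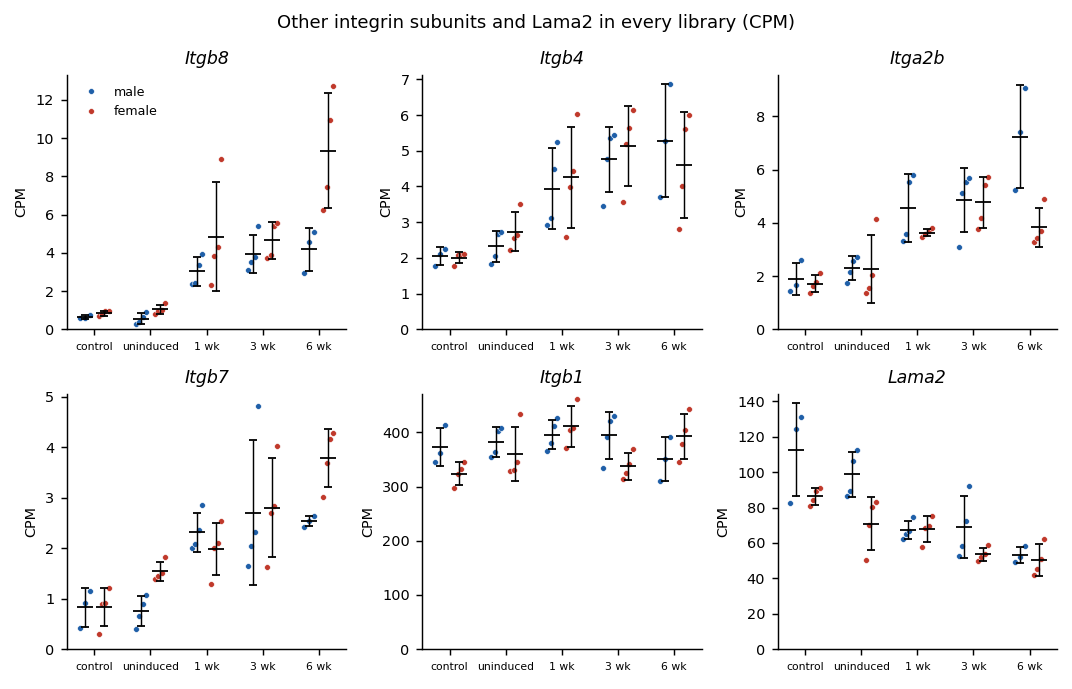
CPM of 5 integrin genes outside the leukocyte set and of *Lama2* in every male (blue) and female (red) library, by group; horizontal lines are means and bars are SD (n = 3 or 4). *Itgb8*, *Itgb4*, *Itga2b* and *Itgb7* lie above the controls at every week, *Itgb1* overlaps them at most weeks, and *Lama2* lies below, with 1 overlapping male library at 3 weeks.

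The 4 collagen-binding alpha chains split by member. *Itga1*, the highest of them per kilobase and a receptor for basement membrane collagen, held 61.8, 56.8 and 75.3 CPM in controls, 49.6, 47.6, 56.7 and 54.1 in uninduced hearts, and 61.4, 40.9, 44.8 and 38.8, then 50.7, 48.6, 38.2 and 50.1, then 45.3, 43.7 and 42.02 at 1, 3 and 6 weeks in males. In females *Itga1* was at 56.9, 50.6, 60.2 and 59.8 CPM in controls, 61.1, 55.6, 55.01 and 46.8 in uninduced hearts, and 47.98, 48.5, 48.01 and 49.8, then 45.9, 40.5, 38.3 and 44.99, then 44.1, 43.95, 62.5 and 46.98 at 1, 3 and 6 weeks. It fell in males at all 3 weeks, by 0.48 (SE 0.14), 0.46 (SE 0.14) and 0.55 (SE 0.15) on the log2 scale, and in females at 3 weeks, by 0.42 (SE 0.11). *Itga2*, its relative on platelets and epithelia, rose at every week in both sexes, with log2 fold changes of 0.88 (SE 0.21), 0.84 (SE 0.21) and 0.83 (SE 0.22) in males and 1.07 (SE 0.21), 0.75 (SE 0.21) and 0.91 (SE 0.21) in females. *Itga2* was a low gene: control libraries ran from 0.487 to 0.651 CPM in males and 0.4503 to 0.947 CPM in females, and those at 6 weeks from 1.02 to 1.796 and 1.33 to 2.23 CPM, without overlap. *Itga11*, a fibrillar collagen receptor of fibroblasts, rose in females at 1 week, by 0.79 (SE 0.17, adjusted p 0.00117), and at no later week, with 0.19 (SE 0.17) and 0.24 (SE 0.17). In males it stood between 0.27 and 0.41 and did not pass. *Itga10*, known from cartilage, did not pass at any week.

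Of the laminin-binding integrin chains, *Itgb4* rose and *Itga6*, its only alpha partner, fell. *Itgb4* is known from epithelia and Schwann cells. The *Itgb4* libraries of males held 1.76, 2.12 and 2.25 CPM in controls, 2.73, 1.84, 2.06 and 2.66 in uninduced hearts, and 2.91, 5.26, 4.49 and 3.11, then 5.44, 4.78, 5.36 and 3.46, then 5.27, 3.71 and 6.88 at 1, 3 and 6 weeks. The *Itgb4* libraries of females held 2.07, 2.08, 2.101 and 1.77 CPM in controls, 3.52, 2.22, 2.65 and 2.55 in uninduced hearts, and 2.597, 6.03, 4.43 and 3.99, then 6.14, 3.57, 5.64 and 5.202, then 4.004, 6.01, 5.62 and 2.81 at 1, 3 and 6 weeks. Control and induced hearts did not overlap, and the log2 fold changes were 0.77 (SE 0.22), 1.03 (SE 0.22) and 1.15 (SE 0.23) in males and 0.88 (SE 0.22), 1.15 (SE 0.22) and 0.98 (SE 0.22) in females. *Itga6*, which also pairs with beta1 and is abundant on endothelium, held 72.5, 62.6 and 90.6 CPM in controls and 54.4, 48.97 and 37.1 CPM at 6 weeks in males and 63.7, 57.1, 83.05 and 78.7 CPM in controls and 40.9, 41.3, 68.9 and 50.9 CPM at 6 weeks in females. It fell by 0.48 (SE 0.15), 0.54 (SE 0.15) and 0.68 (SE 0.16) on the log2 scale in males and by 0.57 (SE 0.17), 0.82 (SE 0.17) and 0.497 (SE 0.17) in females, and the female libraries at 6 weeks overlapped the controls.

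Markers of cells that carry these chains moved too. The Schwann cell list summed to 11.4 to 14.7 CPM in male controls and 19.2 to 25.5 CPM at 6 weeks, and to 12.6 to 16.3 and 18.1 to 32.2 CPM in females, with *Mbp* and *Ncam1* higher in both sexes. Mesothelial markers, an epithelial type on the surface of the heart, summed to 6.90 to 7.80 CPM in male controls and 6.72 to 29.96 CPM at 6 weeks, where none of 6 passed, and to 5.76 to 11.01 and 16.1 to 88.5 CPM in females, where 5 of 6 rose. The endothelial list summed to 1220 to 1391 CPM in male controls and 824 to 1077 CPM at 6 weeks, with 4 of 12 markers lower. In females it summed to 1190 to 1345 and 794 to 1006 CPM, with 8 of 12 lower. Of all genes at 6 weeks 16.2% passed as higher and 10.9% as lower in males, and 21.7% and 21.0% in females. The part of these cell types in the changes of *Itgb4* and *Itga6* was not tested.

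*Itga7*, the alpha chain of the muscle laminin receptor, was the highest of this group per kilobase. Its libraries held 169.8, 188 and 169 CPM in controls, 236, 209, 233 and 222 in uninduced hearts, and 220.2, 199, 214 and 320.3, then 212, 212, 235 and 227, then 253, 163 and 237 at 1, 3 and 6 weeks in males. In females *Itga7* was at 148, 152, 166 and 155 CPM in controls, 178, 169.9, 386 and 245 in uninduced hearts, and 179, 224, 218 and 193, then 199.6, 188, 181 and 195, then 189.7, 181, 197 and 222 at 1, 3 and 6 weeks. It passed once, in males at 1 week (0.41, SE 0.15, adjusted p 0.0411), and its log2 fold changes at the other weeks lay between 0.28 and 0.38. In uninduced hearts of both sexes *Itga7* libraries lay above the controls, with adjusted p of 0.413 and 0.0777 (limma), and did not pass. *Itga3*, a laminin receptor chain of epithelia and vessels, fell in males at 1 week, with a log2 fold change of -0.49 (SE 0.17, adjusted p 0.0338), and ran from -0.41 to -0.12 elsewhere.

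The shared beta1 chain *Itgb1* was nearly level. It held 345, 363 and 413 CPM in controls, 364, 356, 403 and 409 in uninduced hearts, and 426, 366, 412 and 381, then 334, 391, 430.3 and 422, then 350.3, 391 and 309.7 at 1, 3 and 6 weeks in males. In females *Itgb1* was at 332, 297, 345 and 323 CPM in controls, 331, 328, 346 and 435 in uninduced hearts, and 408, 462, 405 and 370.5, then 369.9, 313, 324 and 341, then 345, 379, 443 and 404 at 1, 3 and 6 weeks. Male changes ran from -0.096 to 0.09 and did not pass, and female changes passed at 1 week (0.34, SE 0.10, adjusted p 0.0171) and at 6 weeks (0.27, SE 0.10, adjusted p 0.0392), where the libraries at 6 weeks overlapped the controls. Set against the other beta chains of the same library, *Itgb1* made up a smaller part at 6 weeks. Its share of all integrin beta chains, per kilobase, was 77.8% (77.7 to 77.9) in male controls (mean, lowest and highest library) and 66.4% (64.3 to 69.2) at 6 weeks. In females it was 76.4% (74.99 to 78.1) and 66.4% (63.6 to 68.2). The libraries did not overlap in either sex, and *Itgb5* and *Itgb2* took most of the rest. *Itgb5* went from 16.3% (15.3 to 16.96) to 23.6% (21.1 to 24.8) in males and from 17.8% (15.6 to 19.8) to 22.6% (20.5 to 24.4) in females, and *Itgb2* from 2.09% (1.58 to 2.72) to 5.14% (4.09 to 5.83) and from 1.98% (1.65 to 2.23) to 5.901% (4.64 to 6.401). Such shares are taken within a library and do not depend on how libraries are scaled, and they were not tested. They do depend on the exon lengths by which levels were divided.

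**Figure D5:**
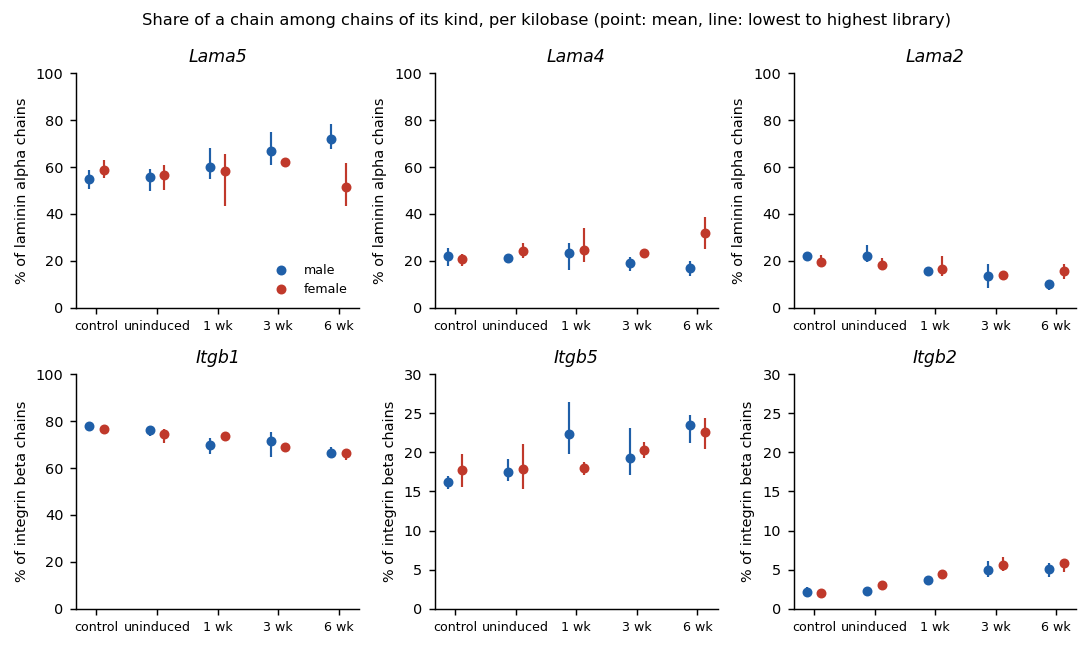
Share of single chains among the laminin alpha chains (upper row) or integrin beta chains (lower row) of the same library, in percent of the summed CPM per kilobase. Points are means and lines run from the lowest to the highest of 3 or 4 libraries in males (blue) and females (red); the axes of *Itgb5* and *Itgb2* end at 30% and the others at 100%. At 6 weeks the libraries of *Itgb1* lie below the controls in both sexes and those of *Lama2* below them in males; no share was tested.

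The share of laminin genes that passed lay below that of all genes at every week, and near it in males at 1 week and in females at 6 weeks. With 10 genes these shares are coarse, and they were not tested. Lower calls alone lay above the share of all genes in males at each week (14.6%, 8.10% and 10.9%). In females they lay above it at 6 weeks (21.0%) and below it at 1 and 3 weeks (13.1% and 14.5%). Of 10 laminin genes in males 3 passed at 1 week (1 higher and 2 lower), 1 at 3 weeks (lower) and 2 at 6 weeks (both lower), beside 14, 14 and 12 of the 21 integrin genes outside the leukocyte set and 33.5%, 21.3% and 27.1% of all genes. In females 0 laminin genes passed at 1 week (by limma and by edgeR alike, with 2, *Lama2* among them, at an unadjusted p under 0.05), 1 at 3 weeks (lower) and 4 at 6 weeks (1 higher and 3 lower), beside 12, 13 and 13 of those integrin genes and 28.4%, 31.3% and 42.7% of all genes. *Lama2* was the gene that recurred. Male hearts had *Lama2* at 82.5, 131 and 124 CPM in controls, 86.5, 89.3, 113 and 106.2 in uninduced hearts, and 65.2, 62.5, 66.5 and 74.6, then 52.8, 58.4, 72.5 and 92.3, then 51.8, 58.2 and 49.4 at 1, 3 and 6 weeks. Female hearts had *Lama2* at 91.2, 84.01, 89.4 and 80.7 CPM in controls, 82.8, 70.4, 50.1 and 80.1 in uninduced hearts, and 68.2, 75.4, 69.7 and 57.9, then 53.9, 51.8, 49.5 and 58.7, then 45.3, 42.1, 62.5 and 51.2 at 1, 3 and 6 weeks. Induced libraries lay below all controls except in males at 3 weeks, where 1 library at 92.3 CPM overlapped. *Lama2* fell in males by 0.72 (SE 0.17), 0.71 (SE 0.17) and 1.05 (SE 0.18) on the log2 scale, and in females by 0.69 (SE 0.14) at 3 weeks and 0.79 (SE 0.14) at 6 weeks, where the adjusted p was 0.000265 in males and 0.000112 in females (limma). In females at 1 week it stood at -0.35 (SE 0.14, adjusted p 0.0614). Under scaling to total reads *Lama2* was still lower at 6 weeks in both sexes, with log2 fold changes of -0.86 and -0.39 (adjusted p 0.00474 and 0.0165, limma). Cardiomyocyte markers, from cells that lay down this laminin, summed to 67170 to 77470 CPM in male controls and 43090 to 55060 CPM at 6 weeks. In females the sums were 49860 to 67360 and 42100 to 50710 CPM. Of the 10 markers 2 were lower in males, beside 10.9% of all genes, and 5 in females, beside 21.0%. The part of cardiomyocytes in the fall of *Lama2* was not tested.

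The promoter of *Lama2* (chr10:26856032-27495754, minus strand in GRCm39) is shown because it was the 1 laminin gene to pass in both sexes at the same week. RefSeq places a start 2816 bases inside the gene as GENCODE annotates it, and the 250 bases before it (chr10:27492939-27493188, minus strand) hold GAGGAA once, in capitals, and neither of the other motifs.
Lama2: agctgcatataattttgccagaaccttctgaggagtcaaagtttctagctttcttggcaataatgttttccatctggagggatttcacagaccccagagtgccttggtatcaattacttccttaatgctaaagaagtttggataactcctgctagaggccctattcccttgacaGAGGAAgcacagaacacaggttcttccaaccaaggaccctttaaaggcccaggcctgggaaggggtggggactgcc

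*Lama5*, the highest laminin alpha chain per kilobase, was lower in females at 6 weeks and did not pass against control in males. Its libraries held 141, 221 and 173 CPM in controls, 167, 162, 134 and 173 in uninduced hearts, and 152, 133, 174 and 217, then 302, 202, 211 and 192, then 198, 228 and 320 at 1, 3 and 6 weeks in males. In females *Lama5* was at 144, 189, 192 and 145 CPM in controls, 182, 166, 106.2 and 121 in uninduced hearts, and 174, 95.7, 206 and 171, then 160.2, 146, 144 and 167, then 143, 72.3, 131 and 88.7 at 1, 3 and 6 weeks. In females the 6-week libraries lay below all controls and the change was -0.66 (SE 0.23, adjusted p 0.0235), whereas in males the libraries overlapped and the change was 0.47 (SE 0.21, adjusted p 0.101). Against uninduced males the 6-week level was higher, by 0.62 (SE 0.20, adjusted p 0.0301). The difference between the sexes at 6 weeks, male minus female, was 1.14 (SE 0.33) with an adjusted p of 0.134 (limma) and did not pass. As a share of laminin alpha chains, *Lama5* was 54.9% (50.6 to 58.8) in male controls and 71.95% (67.9 to 78.3) at 6 weeks, and 58.7% (55.5 to 63.2) and 51.3% (43.4 to 61.5) in females. *Lama2* went from 22.2% (20.9 to 23.4) to 10.2% (7.76 to 11.4) in males and from 19.6% (17.98 to 22.6) to 15.7% (12.5 to 18.5) in females. The share of *Lama4*, the endothelial and muscle interstitial chain, went from 21.98% (17.8 to 25.4) to 17.1% (13.4 to 19.9) in males and from 20.6% (17.7 to 22.9) to 31.9% (25.1 to 38.8) in females, while its own level did not pass at any week. The size of each share depends on the length used, all annotated exons merged: 17831 bases for *Lama2*, 15715 for *Lama4* and 11448 for *Lama5*. Merged exons can be longer than any single transcript, so which alpha chain is most abundant is not settled by these shares.

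Of the beta and gamma chains, *Lamb2*, the beta chain of vessel and muscle laminins, held 423, 422 and 352 CPM in controls, 366, 327, 336 and 389.9 in uninduced hearts, and 307, 303, 318 and 407, then 322, 313, 352 and 298, then 344, 285 and 374 at 1, 3 and 6 weeks in males. In females *Lamb2* was at 298, 339.9, 298 and 296 CPM in controls, 319.7, 297, 235 and 321 in uninduced hearts, and 279.7, 259, 314 and 246, then 280.1, 250.2, 264 and 283, then 252, 221, 273 and 258 at 1, 3 and 6 weeks. Its female libraries at 6 weeks lay below the controls and the change was -0.297 (SE 0.10, adjusted p 0.0266). That fall became 0.10 under scaling to total reads, where it did not pass (adjusted p 0.407, limma), and lay 0.23 below the median of all genes. *Lamc1*, the common gamma chain, held 181, 244 and 301 CPM in controls, 184, 167, 209 and 237 in uninduced hearts, and 194, 153, 177 and 162, then 174, 169.6, 219 and 206, then 141, 172 and 207 at 1, 3 and 6 weeks in males. In females *Lamc1* was at 171, 170.5, 186 and 156 CPM in controls, 185, 172, 142 and 182 in uninduced hearts, and 161, 202, 172 and 161, then 153, 109.9, 125 and 152, then 134, 132, 206 and 128 at 1, 3 and 6 weeks. It passed once, in males at 1 week, at -0.47 (SE 0.17, adjusted p 0.0363), with overlapping libraries. *Lamb1* fell in males at 6 weeks, at -0.51 (SE 0.18, adjusted p 0.0366), also with overlap. *Lama3* and *Lamb3*, chains of epithelial laminin, did not pass, nor did *Lamc3*, for which the female change at 6 weeks was 0.81 (SE 0.39, adjusted p 0.0997) at a level of 0.308 to 2.92 CPM.

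Uninduced hearts differed from controls both in carrying the *Il11* transgene and in lacking tamoxifen, which cannot be told apart. In males 0 of the 35 genes passed against control (limma; 3 had an unadjusted p under 0.05, of which 2 were higher, and edgeR called 0), where 0.597% of all genes passed. In females 1 passed, *Itgb2*, at 0.74 (SE 0.16, adjusted p 0.00856, limma), where 2.87% of all genes passed. A further female count was 9 genes at an unadjusted p under 0.05, of which 8 were higher. The shares of all genes at an unadjusted p are not given here. The leukocyte list summed to 311 to 374 CPM in female uninduced hearts. Set against uninduced rather than control hearts, 17 genes passed at 6 weeks in males (13 higher and 4 lower), against 20.4% of all genes (13.0% higher and 7.40% lower). In females 14 passed (12 higher and 2 lower), against 22.8% (13.7% and 9.08%). At 2-fold or more these were 8 and 5 genes, against 5.60% and 5.63% of all genes, and 0 in uninduced hearts of either sex against control, against 0.384% and 0.773%. *Itgb8* was the largest rise in both, at 2.17 (SE 0.23) and 2.64 (SE 0.27), followed by *Itgax*, at 1.51 (SE 0.22) and 2.21 (SE 0.18). *Lama2* fell in both, by 0.88 (SE 0.17) and 0.48 (SE 0.14) on the log2 scale. The other falls were those of *Itga6*, *Itga8* and *Itga9* in males and of *Itga5* in females (-0.39, SE 0.12, adjusted p 0.0278), the 1 comparison of those run in which *Itga5* passed.

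Between weeks little was called, and 6 against 3 weeks was not tested. No member differed between 1 and 3 weeks in males (0.0177% of all genes passed) or females (0.218%), with 5 and 6 members at an unadjusted p under 0.05. Between 1 and 6 weeks none passed in males (0.165% of all genes; 4 had an unadjusted p under 0.05), and *Itgax* alone passed in females. edgeR, run on the recovered reads, called 0 members in the same 3 comparisons. The shares of all genes at an unadjusted p are not given here for the steps between weeks. In females *Itgb8* and *Itgb7* came next to *Itgax*, with changes from 1 to 6 weeks of 0.97 (SE 0.27, adjusted p 0.0937) and 0.81 (SE 0.23, adjusted p 0.102) (limma).

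No member differed between the sexes in its change against control at 1, 3 or 6 weeks (limma, 35 members and 16627 genes tested, 0.00% of all genes called at each week), and edgeR on the recovered reads called none. At an unadjusted p under 0.05 there were 2 members at 1 week, 2 at 3 weeks and 11 at 6 weeks, with the lowest adjusted p at 0.195, 0.777 and 0.134 (limma). The share of all genes at an unadjusted p is not given here for these differences, so the counts have no background beside them. At 6 weeks all 4 leukocyte integrins had the smaller male estimate, by 0.36 to 0.62 on the log2 scale, and none of these differences passed. These 4 genes were read in the same mice, so their estimates are not independent. The male control described above as standing apart was the highest male control for all 4, with *Itgb2* at 7.85 CPM against 3.82 and 4.96 CPM. Its part in these differences is not given here.

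Ligands and adaptors of integrins and other basement membrane genes were counted at 6 weeks, with falls subject to the same scaling and beside 16.2% of all genes higher and 10.9% lower in males and 21.7% and 21.0% in females. Of the other integrin ligands, 6 of 13 tested rose and 0 fell in males, and 8 of 14 rose and 2 fell in females. Fibronectin (*Fn1*) rose by 3.53 in males and 4.21 in females on the log2 scale, and *Vcam1*, the ligand of alpha4 beta1, by 2.36 and 2.49. *Icam1*, the ligand of the beta2 integrins, rose by 1.36 and 1.62, and the matrix proteins *Emilin1* (which binds alpha4 and alpha9 integrins) by 2.01 and 2.501, *Postn* by 1.71 and 2.44 and *Tnc* by 1.11 and 1.84. Adaptors that link integrins to actin and to signalling passed in both directions: of 25 tested, 5 rose and 5 fell in males, and 7 rose and 7 fell in females. Those that passed at 2-fold or more in both sexes were *Fermt3*, the kindlin of blood cells (1.49 and 1.36), the kinase *Src* (1.08 and 1.26) and alpha-actinin 1, *Actn1* (1.01 and 1.05). Of 16 further basement membrane and laminin receptor genes, 1 rose and 4 fell in males, and 2 rose and 5 fell in females. Their median log2 fold changes were -0.26 and -0.19, close to the -0.26 and -0.25 of the laminin chains, beside -0.01 and -0.02 over all genes.

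Some of these genes share exon sequence with annotated neighbours, so reads on them are uncertain. *Itgam* shares 67.4% of its exon bases with *Gm49368* on the same strand, and *Itga10* shares 33.5% with *Gm42957*, neither of which is in the tables. On the opposite strand *Itga4* shares 20.8% with *Cerkl*, *Itgb4* 14.9% with *Galk1*, and *Itga1* 10.2% and *Itga2* 6.22% with *Mocs2*. The library kit keeps strand, and the strand setting of the counting was not given in the sources used here.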

How the data were processed

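The deposited signal values are in CPM, 1 table for each sex. To make them, the authors used STAR for alignment to GRCm39, featureCounts for counting on Ensembl genes, and a scaling factor for each library. Dividing each library by its smallest step gave whole reads for 100% of values (tolerance 0.001), and these reads served an edgeR alternative. Of 40 libraries 38 were placed by their labels and 2 with conflicting labels were left out.

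Genes at 0.5 CPM or more in at least 3 libraries (16931 in males, 16956 in females) were tested with limma 3.58.1 (mean-variance trend, R 4.3.3) on log2(CPM + 0.5), all libraries of a sex in 1 fit without covariates. P-values were adjusted over all genes tested (Benjamini-Hochberg), and the threshold was 0.05. The tables were scaled separately, so levels were not compared between sexes. A joint fit tested the difference of changes. Replicates were separate mice. Lengths are those of all annotated exons of a gene merged, and lengths and positions are from GENCODE vM39. Scripts were tested on simulated data.

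Members are named, except 1 that is not reported here, with values in every library for those that passed at 2-fold or more in both sexes and those highest per kilobase in their group in controls of either sex. *Lama2* was added after its values were seen. Of the pathway lists, genes passing at 2-fold or more in both sexes at 6 weeks are named. Members and lists were chosen with earlier results of these data known. Alternatives were other pseudocounts, filters, scalings, fits and left-out libraries. Depth limits precision for genes near 1 CPM.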

Additional observations from a re-analysis of the deposited data

Results flagged for a closer look

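In groups of 4 libraries, a library was singled out where its gap to the nearest other was large against the range of the group (Dixon's test at the 95% level). Among the members with values in every library this occurred in 11 of 128 groups. Chance gives about 1 in 20 for a single group. The groups of different members come from the same mice and are not independent, so the count cannot be weighed against that rate. In induced hearts, *Itga1* stood at 62.5 CPM in a female heart at 6 weeks against 43.95 to 46.98 in the others, and at 38.3 CPM in a male heart at 3 weeks against 48.6 to 50.7. In the same female heart *Lamc1* stood at 207 CPM against 128 to 134. Male *Lama5* was at 302 CPM in 1 library at 3 weeks against 193 to 211, male *Lamb2* at 407 CPM in 1 library at 1 week against 303 to 318, and male *Itga5* at 88.5 CPM in 1 library at 1 week against 56.7 to 61.5.

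In uninduced hearts, *Itgam* was at 3.56 CPM in 1 male library against 2.05 to 2.25, *Itga5* at 100.1 CPM in 1 female library against 61.7 to 67.1, and *Itgb1* at 435 CPM in another against 328 to 346. In female controls, *Itgb4* was at 1.774 CPM in 1 library against 2.067 to 2.101, and *Lamb2* at 339.9 CPM in another against 295.7 to 298.5. The low *Itgb4* control and the high *Lamb2* control entered the tests as they stand.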

How the results depend on the processing

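Over all comparisons 144 member calls were made, and 82 were lost in no setting tried, the minimum fold aside. With replicate 1, 2, 3 or 4 left out in turn, the members called against control numbered 12 to 19, 7 to 16 and 14 to 16 in males at 1, 3 and 6 weeks and 13 to 18, 15 to 16 and 16 to 22 in females. They numbered 10 to 17 in males and 9 to 15 in females for 6 weeks against uninduced, and in females 0 to 1 for uninduced against control, 0 to 1 for 3 against 1 week and 1 to 2 for 6 against 1 week. Moves of over 1.5 times came without replicate 3 (12 and 7 in males at 1 and 3 weeks, 11 in males for 6 weeks against uninduced). They also came without replicate 4 (10 in that comparison) and without replicate 2 (9 in females). Male controls and male hearts at 6 weeks held no replicate 2, so leaving out a replicate number took unequal parts from the groups. Requiring a 2-fold change left 6, 7 and 9 in males and 5, 7 and 8 in females, 8 and 5 for 6 weeks against uninduced, and 0 for uninduced females. For uninduced females, scaling to total reads and edgeR each called 2 and a fit of only the groups compared called 0. That fit called 9 in females for 6 weeks against uninduced. A pseudocount of 2 called 2 in females for 6 against 1 week. Under scaling to total reads 28 calls no longer passed and 1 more changed sign (*Lamb2* in females at 6 weeks, 0.10). Other settings lost 0 to 14 each: pseudocounts 0 and 2, filters 0 and 0 (3 calls of male *Itgae* were not tested under the stricter filter), median-of-ratios 1, edgeR 2, and a fit of only the groups compared 14. Replicate numbers did not pair the libraries (mean residual correlation 0.013 in males and 0.025 in females). With a replicate block the counts were 19, 19 and 18 in males and 16, 18 and 20 in females, with 7 calls lost. The cause of each loss was not tested. For these settings the shares of all genes that passed are not given, so a loss particular to members cannot be told from a general one. Leaving out the high male control, chosen after seeing the data, lost 14 calls. Genes near 1 CPM, such as *Itgb8* in controls, rest on few reads.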

Other observations

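The 2 male libraries whose labels conflict entered no comparison, and their values are given as they stand. The library titled 6 weeks and described as control held *Il11* at 0.597 CPM, *Itgb8* at 0.398 CPM, *Itgax* at 0.478 CPM, *Itgam* at 2.03 CPM, *Itgb2* at 6.01 CPM and *Lama2* at 108 CPM. The library titled control and described as 6 weeks held *Il11* at 511 CPM, *Itgb8* at 5.58 CPM, *Itgax* at 7.10 CPM, *Itgam* at 5.37 CPM, *Itgb2* at 15.5 CPM and *Lama2* at 67.5 CPM.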
